A study of Homo sapiens with 18 samples.

Results

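The SP100 family cluster is a run of 4 related genes on the long arm of chromosome 2: SP110, SP140, SP140L and SP100. In the hg38 build and GENCODE release 44, SP110 (ENSG00000135899.20, minus strand) lay at chr2:230165186-230225729, SP140 (ENSG00000079263.19, plus strand) at chr2:230203110-230313215, SP140L (ENSG00000185404.17, plus strand) at chr2:230327184-230403732 and SP100 (ENSG00000067066.17, plus strand) at chr2:230415942-230545606. A peak was counted for a gene if it shared at least 1 bp with the gene body or with the 10 kb on either side. The 4 windows join into a single stretch of 400421 bp, chr2:230155186-230555606. It held 28 of the 506359 peaks of the 12 peak lists, 10 of them H3K27ac peaks and 18 CTCF peaks. The 4 genes are 4 of 19111 protein-coding genes counted in the same way.

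ChIP-seq was performed in HEK293T, a transformed human embryonic kidney line, with antibodies against H3K27ac, an acetylated lysine of histone H3 that marks promoters and enhancers in use, and against CTCF, a DNA-binding protein that separates chromatin domains and anchors loops. Untreated cells (CTRL) were compared with cells that received 1 mM valproic acid (VPA) for 1 day, a drug that blocks histone deacetylases. Each antibody and treatment had 3 replicates, which makes 4 groups, and the 6 input libraries were not analysed here. The line is a single transformed line and the labels name no interferon treatment, and they do not say whether replicates were separate cultures, so p-values measure only the spread between these libraries.

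Proteins of the SP100 family are nuclear readers of chromatin that carry a SAND domain, which binds DNA, and, in some isoforms, a PHD finger and a bromodomain, which bind histone tails. SP100 is a permanent constituent of PML nuclear bodies, the nuclear dots where many SUMO-modified proteins gather, and restricts the genomes of several DNA viruses. SP110 is an interferon-induced relative needed for immune defence, SP140 is found mainly in leukocytes, where it keeps genes of other lineages silent, and SP140L is a close relative of SP100 and SP140. All 4 genes are commonly counted among genes that respond to interferon.

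Start regions of the 4 genes are shown because H3K27ac was examined at the gene starts. They are RefSeq promoter windows (GRCh38.p14, 300 bases that end just past the start). Capitals mark AAGTGAAA, or its reverse complement TTTCACTT, where either is found. SP100 is chr2:230415951-230416250 (plus strand), SP140L is chr2:230326943-230327242 (plus strand), SP140 is chr2:230225486-230225785 (plus strand) and SP110 is chr2:230219935-230220234 (minus strand).
SP100: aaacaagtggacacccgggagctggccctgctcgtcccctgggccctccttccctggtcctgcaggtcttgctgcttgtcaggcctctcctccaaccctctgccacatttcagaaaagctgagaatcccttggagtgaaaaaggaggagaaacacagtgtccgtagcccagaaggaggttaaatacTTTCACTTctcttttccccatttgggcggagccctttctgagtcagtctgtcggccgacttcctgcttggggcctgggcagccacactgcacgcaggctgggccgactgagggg
SP140L: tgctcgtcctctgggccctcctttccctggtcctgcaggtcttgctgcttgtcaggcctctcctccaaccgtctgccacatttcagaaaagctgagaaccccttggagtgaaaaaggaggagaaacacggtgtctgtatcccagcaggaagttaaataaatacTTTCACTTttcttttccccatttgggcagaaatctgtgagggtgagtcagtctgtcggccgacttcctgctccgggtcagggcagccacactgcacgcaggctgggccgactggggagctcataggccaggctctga
SP140: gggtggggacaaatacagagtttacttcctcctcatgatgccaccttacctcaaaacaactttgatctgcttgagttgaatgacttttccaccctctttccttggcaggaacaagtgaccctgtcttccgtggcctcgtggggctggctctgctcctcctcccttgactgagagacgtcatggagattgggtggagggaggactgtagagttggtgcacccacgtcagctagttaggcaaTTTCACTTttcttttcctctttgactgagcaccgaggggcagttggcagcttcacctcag
SP110: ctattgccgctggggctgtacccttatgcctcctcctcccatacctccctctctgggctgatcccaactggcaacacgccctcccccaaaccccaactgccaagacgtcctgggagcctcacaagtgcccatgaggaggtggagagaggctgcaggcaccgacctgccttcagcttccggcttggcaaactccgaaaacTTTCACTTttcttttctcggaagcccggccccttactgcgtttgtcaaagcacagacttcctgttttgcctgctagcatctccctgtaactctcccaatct

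The windows of SP100 and SP140L are close copies, with 251 of 272 aligned bases identical (92.3%). Within the stretch around either of these starts, 8.15% of 50-base words occurred elsewhere in the cluster, against 1.78% of words over the whole cluster, and none around the starts of SP110 or SP140. Reads of that repeated share can be hard to place, and how the aligner's multiply mapped reads were treated is not given in the sources used here. An interferon response element core, GAAANNGAA on either strand, was in 0 of the 6 RefSeq windows of the family and in 8.11% of 35116 windows of all genes. A STAT core, TTCNNNGAA, was in 1 of the 6, the SP110 window printed above, and in 7.66% of all windows. AAGTGAAA on either strand was picked after the sequences had been seen. It was in 5 of the 6 windows and in 1.62% of all windows, which was not tested. The windows of SP140 and of the outermost start of SP110 overlap and share 1 copy. Those of SP100 and SP140L are close copies, so the 5 windows are not independent. AAGTGAAA was not in the second window of SP100. No match says only that these letters were not in the window. It does not show that the windows lack interferon response elements with other letters.

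H3K27ac was sparse along the cluster and sat mainly at a single place inside SP140L. CTRL replicates 1, 2 and 3 had 1, 2 and 1 H3K27ac peaks there, and the VPA replicates had 2, 2 and 2. The groups overlap, and the means of 1.33 ± 0.577 and 2 ± 0 (SD, n = 3) differed by 0.667, with p = 0.4 in a two-sided exact permutation test, where 3 against 3 libraries cannot go below 0.1. These peaks covered 721, 1502 and 1006 bp in CTRL and 1334, 2273 and 1346 bp in VPA. Mean covered lengths of 1076 ± 395 bp (CTRL) and 1651 ± 539 bp (VPA; SD, n = 3) differed by 575 bp, and the groups overlap (exact permutation test, p = 0.3). VPA was longer in each of the 3 same-numbered pairs, with p = 0.25 in an exact sign-flip test, the smallest that 3 pairs allow. Lists of VPA libraries were longer throughout the genome, with 38441 to 40992 entries for H3K27ac against 26299 to 29799 in CTRL.

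**Figure D1:**
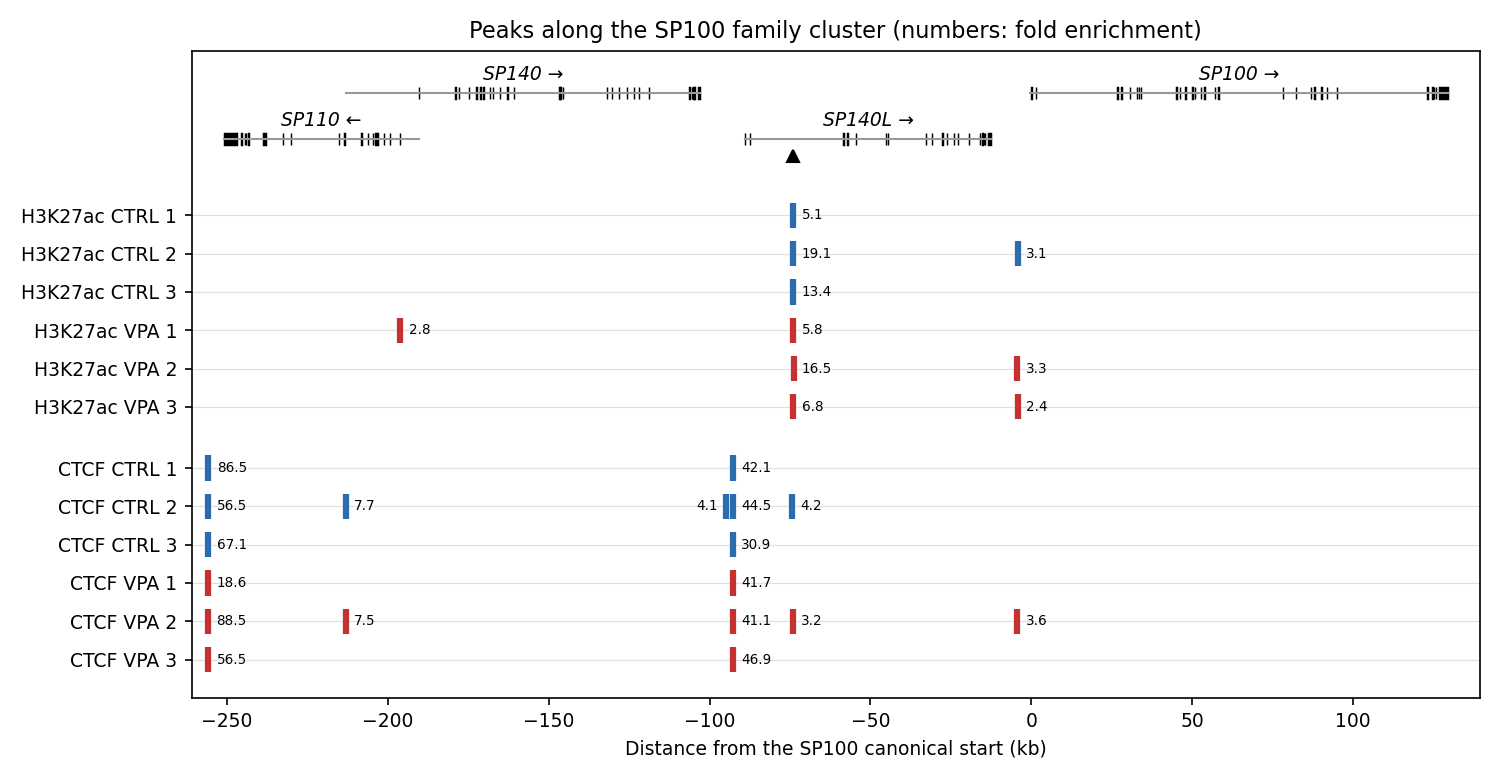
Peaks of each library (rows) along the cluster, by distance in kb from the canonical start of SP100, with the fold enrichment of each peak as a number. Blue is CTRL and red is VPA, bars mark the middle of a peak and are not drawn to its width, black boxes are exons of the canonical transcript, grey lines the gene bodies, arrows the strand and the triangle a further start inside SP140L. H3K27ac has 1 column of peaks in all 6 libraries, CTCF has 2, and the body of SP100 holds no peak.

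Gene by gene, the H3K27ac peak number of SP140L was 1, 2 and 1 in CTRL and 1, 2 and 2 in VPA. SP100 had 0, 1 and 0 in CTRL and 0, 1 and 1 in VPA, and these peaks lay upstream of the gene, in ground that its window shares with that of SP140L. SP110 and SP140 had 0 peaks in the CTRL libraries and 1, 0 and 0 in the VPA replicates, the same peak in both cases since their windows overlap. For none of the 4 genes did the groups separate (exact permutation test, p = 1 for each), while 10.2% of all genes had peak numbers that were higher in VPA without overlap and 0.147% lower. A median gene had 1.33 peaks in CTRL and 2 in VPA, and 16.1% of all genes had 0 peaks in all 6 libraries.

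No H3K27ac peak was called at the outermost gene start of any member: a peak within 1 kb of it was found in 0 of 6 libraries for SP110, SP140, SP140L and SP100. Over all genes, 58.1% had such a peak in 6 libraries and 32.9% in 0 libraries. Members have several starts, so every annotated start was examined. For SP100, 0 of 19 start positions had an H3K27ac peak within 1 kb in any library, and for SP140 0 of 14. For SP140L, 1 of 9 start positions had one, in both treatments. For SP110, 7 of 15 had one, all through the same peak of a single VPA library.

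The H3K27ac region inside SP140L, chr2:230341478-230343183 (1706 bp), had a peak in all 6 libraries, as did 33.2% of the 55382 H3K27ac regions of the genome. Its median summit lay 266 bp downstream of the start of a protein-coding transcript of SP140L with 6 exons (ENST00000458341.1), called its inner start here, 15.14 kb downstream of the canonical start and in an intron of the longer transcripts. The fold enrichment over local background, as deposited, was 5.15, 19.1 and 13.4 in CTRL and 5.77, 16.5 and 6.82 in VPA. The groups overlap, replicate 1 was the lowest of each treatment, and the log2 fold enrichment was −0.34 in VPA relative to CTRL (SE 0.65, limma across all 18407 regions found in 6 libraries, adjusted p = 1.00). No region of the genome passed this test (0% called higher and 0% lower, 301 regions at an unadjusted p under 0.05). In simulated data of the same size, 1% of regions with a log2 change of 2 were called, so the test had almost no power.

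The same peaks were compared by the number of fragments over the summit (the summit pileup), recovered from the fold enrichment and the p-value. The pileup was 127, 132 and 112 fragments in CTRL and 142, 103 and 86 in VPA. The local background beside it was 23.9 fragments in CTRL replicate 1 and 23.8 in VPA replicate 1, and 5.28 to 11.8 in the others. Divided by the background coverage of the library, a measure of its depth, the pileup was 35, 34.8 and 31.9 in CTRL and 38.6, 26.1 and 23.5 in VPA (33.9 ± 1.71 and 29.4 ± 8.09, SD, n = 3). VPA was higher within replicate 1 and lower within replicates 2 and 3, and the groups overlap. The log2 difference was −0.24 (SE 0.21, limma, adjusted p = 0.412), against a median of −0.28 over all regions, of which 4.04% were called higher and 13.3% lower. With the replicate number as a block in the fit of the fold enrichment, the log2 difference had an SE of 0.24 and an adjusted p of 0.344 (limma), while 4.73% of all regions were called higher and 11.8% lower. Among these regions its height stood at the 28.5 to 37.3 percentile of each library, below the middle.

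**Figure D2:**
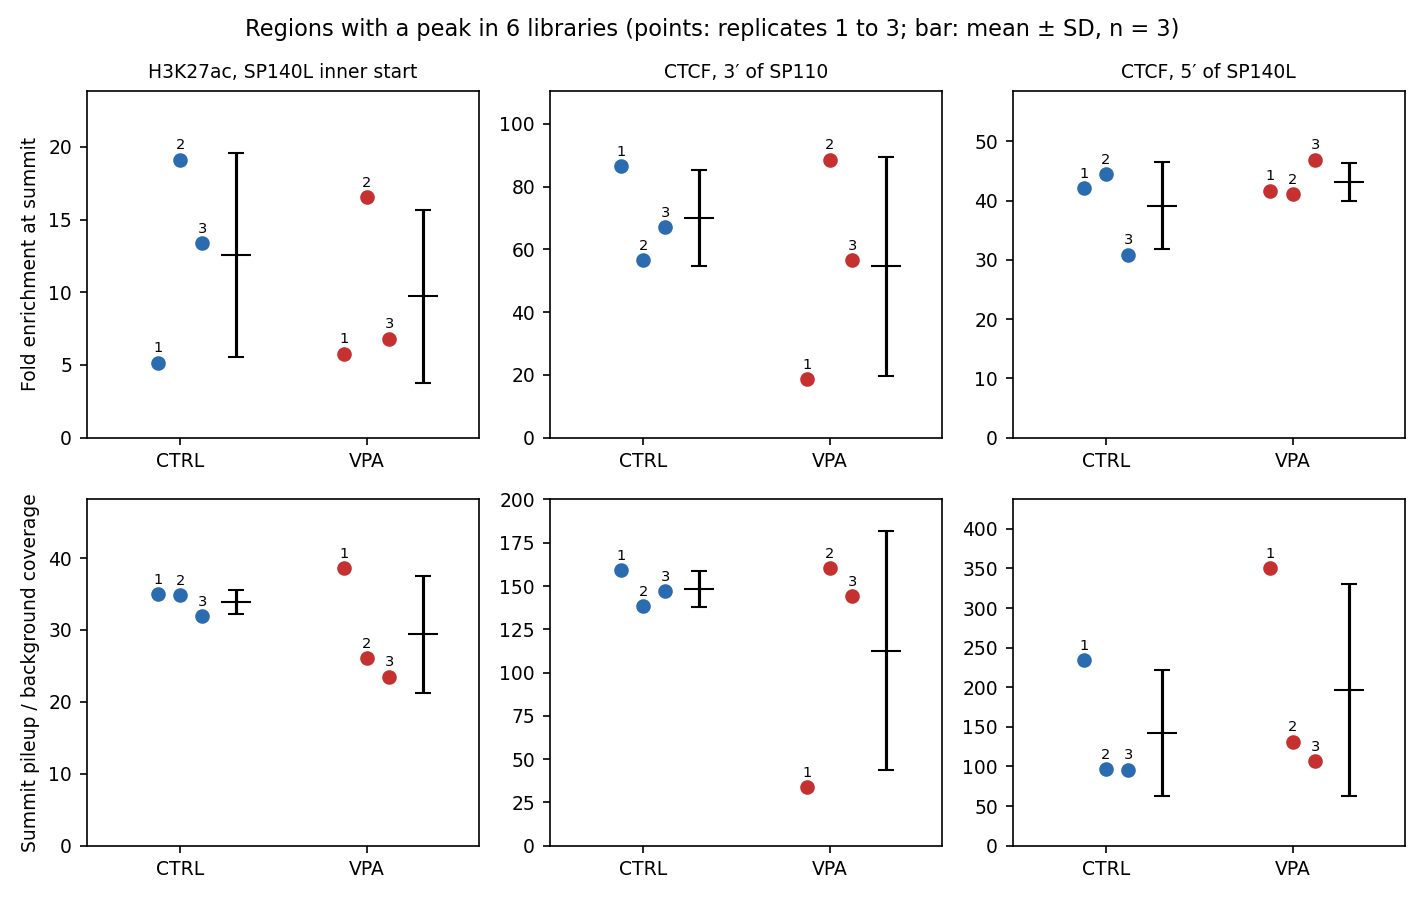
Fold enrichment at the summit (upper row) and summit pileup over the background coverage of the library (lower row) for the 3 regions of the cluster with a peak in all 6 libraries. Points are replicates, numbered, and bars are the mean ± SD (n = 3); CTRL and VPA overlap in all 6 panels, with VPA replicate 1 far below the other libraries at the CTCF region 3′ of SP110.

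The other H3K27ac regions were weak and not shared by all libraries. At SP110, a peak was found only in VPA replicate 1, at chr2:230219841-230220224, with a fold enrichment of 2.75 and a pileup of 17 fragments over a local background of 5.53. Its −log10 q-value of 2.80 placed it at the 6.05 percentile of its list, and its summit lay 86 bp from a start of SP110 and 0.12 kb from the canonical start, inside the SP110 window printed above. A peak in a single library was common, with 30.4% of all H3K27ac regions found in 1 library only. Upstream of SP100, chr2:230411536-230412190 had a peak in CTRL replicate 2 and in VPA replicates 2 and 3. Its pileups were 33 fragments in CTRL and 29 and 29 in VPA, with fold enrichments of 3.11 in CTRL and 3.30 and 2.35 in VPA. It lay 4.31 kb before the canonical start of SP100, in an exon of a minus-strand transcript of the annotation's provisional TEC class (ENSG00000279964). None of the 3 H3K27ac regions of the cluster was present in every VPA library and absent from every CTRL library, a pattern of 4.12% of all H3K27ac regions, and none had the reverse pattern, that of 0.139%. From the last H3K27ac region to the end of the cluster, 143.42 kb were free of H3K27ac peaks in all 6 libraries, the whole body of SP100 included.

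CTCF marked the cluster at 2 constant places, one past the 3′ end of SP110 and one between SP140 and SP140L. The numbers of CTCF peaks were 2, 5 and 2 in CTRL and 2, 5 and 2 in VPA, so that the means were equal (exact permutation test, p = 1) and replicate 2 had more peaks than replicates 1 and 3 in both treatments. The covered length was 1765, 2862 and 1627 bp in CTRL and 1493, 3203 and 1686 bp in VPA, a difference of 42.7 bp (exact permutation test, p = 0.9). By gene, the peak number of SP110 was 1, 2 and 1 in CTRL and again 1, 2 and 1 in VPA, SP140 had 1, 3 and 1 and then 1, 2 and 1, SP140L had 1, 3 and 1 in both, and SP100 had 0, 0 and 0 and then 0, 1 and 0. The groups overlapped for all 4 genes (exact permutation test, p = 1 for each), while 0.351% of all genes were higher in VPA without overlap and 0.774% lower. None of the 6 CTCF regions was found in all libraries of a single treatment only (over all CTCF regions, 0.186% in VPA only and 0.326% in CTRL only).

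The sites under the constant CTCF regions are shown with the match to the CTCF core consensus in capitals, each on the strand of the match. The first lies at chr2:230160320-230160379 (minus strand) and matched the consensus in full, 12 bp from the median summit. The second lies at chr2:230323390-230323449 (plus strand), 26 bp from the median summit, with 1 mismatch.
CTCF site 3′ of SP110: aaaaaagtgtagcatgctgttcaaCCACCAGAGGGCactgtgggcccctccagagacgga
CTCF site 5′ of SP140L: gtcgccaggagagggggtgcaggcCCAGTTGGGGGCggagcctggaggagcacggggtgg
A full match within 100 bp of the summit was found in 1 of the 6 CTCF regions of the cluster and in 9.55% of all 69985 CTCF regions. With 1 mismatch allowed, it was found in 4 of the 6, against 36.2% of all, and a further match with 1 mismatch lay 60 bp from the summit 5′ of SP140L, also on the plus strand. Over the 27794 CTCF regions found in 6 libraries, these shares were 16.8% for a full match and 50.5% with 1 mismatch allowed. The matches of the constant regions thus lay on opposite strands and pointed away from each other, those 5′ of SP140L only with 1 mismatch.

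The CTCF region 3′ of SP110, chr2:230159896-230160860, had a peak in all 6 libraries, as did 39.7% of all CTCF regions, and lay in an intron of a long noncoding transcript (ENSG00000225963). Its fold enrichment was 86.5, 56.5 and 67.1 in CTRL and 18.6, 88.5 and 56.5 in VPA. The pileup was 582, 544 and 532 fragments in CTRL and 124, 590 and 517 in VPA. VPA replicate 1 stood apart, and the other 5 libraries overlapped. The log2 difference was −0.60 (SE 0.65, limma over 27794 regions, adjusted p = 1.00), and without VPA replicate 1 it was 0.04 (SE 0.42). VPA replicate 1 had low fold enrichments at most regions: its log2 fold enrichment minus the mean of the other 5 libraries was −1.01 at the median region and −1.9 here, at the 22.6 percentile. CTRL replicate 1 was also low at the median region (−0.731), but here it was high (0.755, at the 90 percentile). At the constant region 5′ of SP140L, VPA replicate 1 was not low (0.0355, at the 83.3 percentile).

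The CTCF region 5′ of SP140L, chr2:230322865-230323832, lay between genes, 3.8 kb before the canonical start of SP140L, and its summit was 163.03 kb from that of the region 3′ of SP110. Its fold enrichment was 42.1, 44.5 and 30.9 in CTRL and 41.7, 41.1 and 46.9 in VPA. The groups overlap, with a log2 difference of 0.16 (SE 0.56, limma, adjusted p = 1.00). The pileup was 855, 380 and 348 fragments in CTRL and 1291, 483 and 384 in VPA, and was highest in replicate 1 of either treatment, where the local background was 19.3 and 30.0 fragments against 7.21 to 10.8 in the other libraries. No CTCF region of the genome passed the test (0% called in either direction by limma, 254 at an unadjusted p under 0.05), also with the replicate block and on the pileup scale. In simulated CTCF data, 0% of the regions with a log2 change of 2 were called.

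Of the 4 remaining CTCF regions, all were weak and all came from replicate 2. One at chr2:230202840-230203278 lay in an exon of SP110 and 42 bp from the outermost start of SP140, with fold enrichments of 7.70 in CTRL and 7.45 in VPA. One at chr2:230341791-230342178 lay inside the H3K27ac region of SP140L, 76 bp from the inner start, with 4.17 in CTRL and 3.17 in VPA. One in CTRL only, at chr2:230321261-230321597, had 4.10, and one in VPA only, at chr2:230411623-230412127, had 3.56 and lay within the H3K27ac region upstream of SP100. The first pair reached the 23.1 and 27.5 percentile of their lists, and the others stayed between 3.56 and 5.39.

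**Figure D3:**
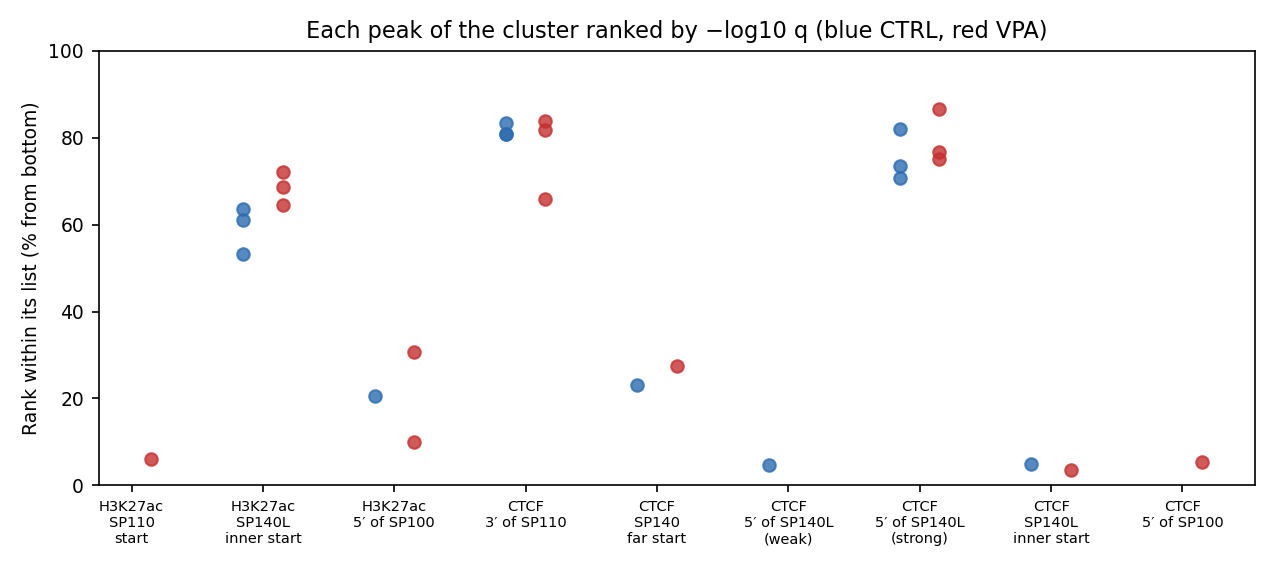
Rank of each cluster peak within its own list by −log10 q-value, in percent from the bottom, for the 3 H3K27ac and 6 CTCF regions (blue CTRL, red VPA, 1 point per library with a peak). Regions found in all 6 libraries lie between 53.2 and 86.5, and the others between 3.56 and 30.7.

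Beside the cluster, H3K27ac peaks were denser. In the 500 kb before the cluster there were 0.733 ± 0.231 H3K27ac peak summits per 100 kb in CTRL and 1.47 ± 0.462 in VPA, in the cluster 0.333 ± 0.144 and 0.499 ± 0, and in the 500 kb after it 1.27 ± 0.306 and 1.73 ± 0.416 (SD, n = 3). CTCF summits per 100 kb in the cluster were 0.749 ± 0.433 in either treatment, against 1.87 and 1.73 before it and 3.93 and 3.87 after it. The differences between stretches were not tested. The pileup over background coverage at the inner start of SP140L, 23.5 to 38.6, overlapped that at the start of its neighbour SLC16A14, 17.7 to 36.1. It was below the values of all 6 libraries at the starts of ITM2C, 53.9 to 87.1, CAB39, 58.7 to 146, and the shared start region of TRIP12 and FBXO36, 64.5 to 143. Only neighbours with a start peak in all 6 libraries were compared. GPR55 and SPATA3 had a start peak in 0 CTRL and 0 VPA libraries. For DNER it was 0 CTRL and 1 VPA library, and for C2orf72 3 CTRL and 2 VPA libraries.

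**Figure D4:**
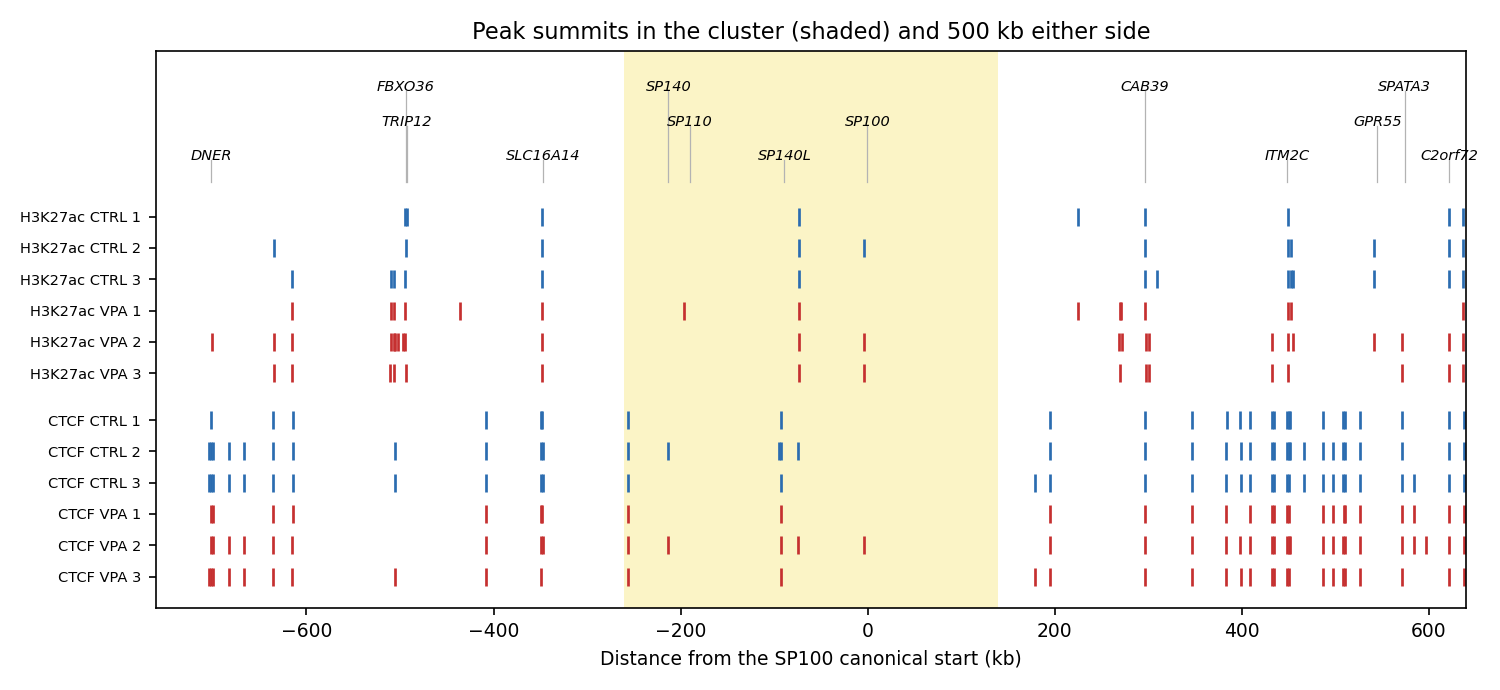
Peak summits of each library (rows, blue CTRL, red VPA) in the cluster (shaded) and 500 kb either side, by distance in kb from the canonical start of SP100, with the starts of protein-coding genes named above. The cluster holds 1 or 2 H3K27ac summits per library, and the right part of the shaded stretch, past the start of SP100, is empty in all 12 rows.

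Of 22 genes whose proteins work in PML nuclear bodies, as SP100 does, 21 had an H3K27ac peak at the outermost gene start in 6 libraries. The other 1 had it in 0 libraries, as did the 4 family members, and this difference was not tested. Shares over all genes were 58.1% in 6 libraries and 32.9% in 0 libraries. For SP110 and SP140 the outermost start lies more than 1 kb from the canonical start. At the canonical start of SP110, VPA replicate 1 had a peak. Peak numbers were higher in VPA without overlap for 4 of the 22 (18.2%, against 10.2% of all genes) and lower for 0, with a median difference of 0.833 peaks against 0.333 over all genes. BLM, a helicase that resolves DNA junctions, had 2 peaks in each CTRL library and 10, 5 and 4 in the VPA libraries. SUMO2, a small protein modifier, had 2, 3 and 3 in CTRL and then 7, 6 and 5 in VPA. CABIN1, a subunit of the HIRA histone chaperone, had 5, 5 and 4 and then 8, 8 and 7. MORC3, an ATPase of the nuclear bodies, had 4, 3 and 4 and then 7, 5 and 5.

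Of 40 genes of the interferon pathway, 20 had an H3K27ac peak at the outermost gene start in 6 libraries and 15 in 0 libraries. Shares over all genes were 58.1% and 32.9%. Some genes without such a peak had H3K27ac peaks elsewhere in their windows in all 6 libraries. The median difference in peak number for the list was 0, against 0.333 over all genes. Higher numbers in VPA without overlap were found for 3 of 40 (7.5%, against 10.2% of all genes) and lower ones for 0. STAT2, a factor that carries the interferon signal to the nucleus, had 2 in each CTRL library and then 5, 3 and 3. JAK1, a kinase that associates with cytokine receptors, had 5, 5 and 5 and then 6, 9 and 8. BST2, which tethers budding viruses to the cell, had 3, 5 and 5 and then 10, 6 and 6. Its outermost gene start had a peak in 0 CTRL libraries and in 3 VPA libraries. The share of all genes with this pattern at the gene start is not given here. As a check of the line, 8 of 10 genes known from HEK293T had a peak at the outermost gene start in 6 libraries. PAX2 and PAX8 were the exceptions (named after their values were seen). Of 8 leukocyte markers, 0 had such a peak in 6 libraries.

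**Figure D5:**
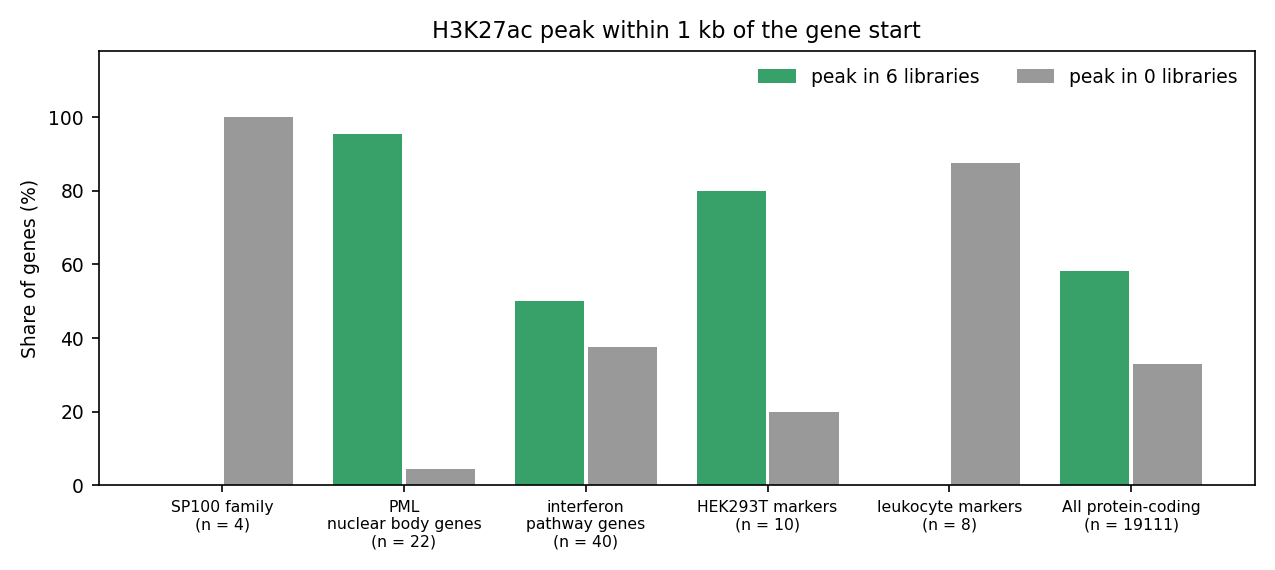
Share of genes (%) with an H3K27ac peak within 1 kb of the outermost gene start in 6 libraries (green) or in 0 libraries (grey), for the SP100 family, the 4 lists and all protein-coding genes. For the SP100 family the share is 0 in green and all 4 genes are in grey. The peak is in 6 libraries for 21 of the 22 PML nuclear body genes and for 58.1% of all genes.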

How the data were processed

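ChIP libraries of HEK293T cells in 4 groups of 3 replicates were grouped by their labels. The authors aligned reads to hg38 with Bowtie2 and called peaks per library with MACS3 3.0.0a7, per the submitters' processing notes, at a q-value of 0.05; whether inputs were used, and how duplicates were treated, is not given in the sources used here. The deposited lists hold, per peak, a score, a fold enrichment (ratio), a −log10 p-value and a −log10 q-value, as the authors' peak caller gave them. Read totals are unknown. Background coverage, recovered from fold and p-value, was 3.51 to 3.95 fragments, and the lowest pileup 11 or 12. Replicate 1 had the shortest list of each group.

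Peaks of an antibody sharing 1 bp were joined into regions. Peak numbers and covered lengths were compared with two-sided exact permutation tests (numpy 2.4.6). Log2 fold enrichment was compared with limma 3.58.1 (R 4.3.3, Benjamini-Hochberg, threshold 0.05), over regions with a peak in 6 libraries. Regions without a peak in some library have no value and were not tested. Methods were tested on simulated data. Same-numbered H3K27ac libraries deviated together (correlations 0.865, 0.585 and 0.591), so the blocked fit is given beside the result, although replicates 2 and 3 also deviated together (0.607 and 0.554). The alternatives were other q-values, windows, list lengths, scalings and left-out replicates. Named were the members, their regions, genes within 500 kb, and genes of the PML nuclear body and interferon lists whose groups did not overlap; 44 genes tied with SP100 in peak numbers, so no gene of like pattern is named. Members and lists were chosen with earlier results of these data known. Only some of the sequences examined are printed.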

Additional observations from a re-analysis of the deposited data

How the results depend on the processing

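Of 160 alternative values with a p, 0 were under 0.05, and no region of the cluster passed limma's test under any alternative; with 3 against 3 libraries the exact tests could not pass the threshold. The difference in H3K27ac peak number (0.667, VPA minus CTRL) was 0 when peaks under a −log10 q-value of 10 were dropped and −0.333 with lists of equal length, where SP140L and SP100 also reversed to −0.333 each; the shortest list then set the length, so weak peaks of the longer VPA lists drop out. Without single replicates the difference in H3K27ac peak number ranged from 0.5 to 1. It was 1 without CTRL replicate 2, where the groups did not overlap (exact permutation test, p = 0.1). The difference in CTCF peak number ranged from −1 to 1 without single replicates, 1 without CTRL replicate 2 and −1 without VPA replicate 2, and that of SP140 from −0.667 to 0.333, the latter without CTRL replicate 2. The CTCF covered length reversed to −36.7 bp under the same q-value limit and to −34 bp with lists of equal length, and ranged from −495 to 431 bp without single replicates. The difference in H3K27ac covered length (575 bp) was 135 bp with lists of equal length, 293 bp under the q-value limit, and ranged from 264 (without VPA replicate 2) to 788 bp without single replicates.

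On the log2 scale, leaving out single replicates moved the H3K27ac region of SP140L between −0.88 and 0.063 (without CTRL replicate 2), the CTCF region 3′ of SP110 between −1.09 and 0.037 (without VPA replicate 1), and that 5′ of SP140L between −0.0059 (without CTRL replicate 3) and 0.26. The cause of these reversals was not tested. The replicate block gave p = 0.5 for the H3K27ac peak number and p = 0.25 for its covered length (exact sign-flip test, smallest p 0.25), and changed no call at the cluster. CTCF libraries share only a number (correlations of 0.34, −0.0451 and 0.477 for same-numbered pairs); the block left the CTCF calls at 0, and gave a p of 0.75 for the covered length in the same exact test. A CTCF core match was found in 1 region within 50 bp, and in 4 with 1 mismatch within 100 bp. Lists hold called peaks only. The lowest pileup of a called peak was 11 or 12 fragments in each library, and more are needed where the local background is higher. Upstream of SP100, 29 fragments over a local background of 11.8 in VPA replicate 3 gave a −log10 q-value of only 3.41. A missing peak does not show that a mark was absent.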
